A study of Rattus norvegicus with 2 samples.

Results

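The 10 genes described here mark the mesothelium and the epicardium. They were taken by name, and the rows of the deposited value table whose single gene symbol was one of these names were their measurements. Of the 10 genes, 8 had a named probe set (Wt1, Tbx18, Bnc1, Msln, Upk1b, Gpm6a, Aldh1a2 and Rspo1), out of 15037 named genes in all, whereas Upk3b and Lrrn4 had none in the probe annotation used here and were not analysed. The series' design text names 1 cocaine rat and 1 control rat, 1 array for each, both labelled as RNA of the left ventricle of male SD (Sprague Dawley) rats, which the study's methods give as 8 weeks old. The cocaine rat received 20 mg/kg of cocaine daily through the tail vein for 14 days and was killed a day after the last dose. The control rat is labelled as having had no stimulation, and the methods describe saline by the same route on the same schedule. Each sample was hybridized to 1 Clariom S array, which measures a transcript with a set of short probes, and no animal was repeated, so the differences below carry no SD and no test and describe these 2 arrays only.

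Mesothelium is the flat epithelium that lines the body cavities and covers the organs within them, as pleura on the lung and as epicardium on the heart. It makes lubricating fluid and, in the embryo, its cells leave the surface and become fibroblasts and vascular smooth muscle of the organ below, under the control of factors such as Wt1 and Tbx18 and of retinoic acid made by Aldh1a2. The same genes are also known outside this layer, for instance Wt1 in kidney podocytes, the uroplakins in the bladder lining and Gpm6a in neurons, so that in RNA from a whole piece of tissue none of them stands for 1 cell type. In such RNA, fewer cells of a type and less RNA per cell cannot be told apart.

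The table gives normalized linear intensities, whose median over all probe sets was 180.9 after cocaine and 181.6 in the control. As they carry no flags for detection, a background limit was taken from 1155 receptor genes of the nose (olfactory and vomeronasal), which belong to sensory neurons, at their 95th percentile. The limit was 64.1 after cocaine and 71.5 in the control. On both arrays all 17 measured markers of alveolar and airway epithelium lay above it. Of 18 cardiomyocyte markers, 14 did after cocaine and 9 in the control, against 67.3% and 66.2% of all named genes. Summed intensities were 3712720 after cocaine and 3684460 in the control for the lung markers, against 15077 and 11019 for the cardiomyocyte markers. Lung markers were thus bright on both arrays, whereas some heart muscle markers, which should define a left ventricle, lay under the limit. Pleura and epicardium as sources of the mesothelial transcripts cannot be told apart with these arrays.

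Among the 8 measured genes, Aldh1a2, Gpm6a and Rspo1 were brighter on the cocaine array and well above the limit on both arrays, Msln and Upk1b were nearly equal, and the transcription factor genes lay near or under the limit. Above the limit on both arrays were 5 of the 8 genes (Msln, Upk1b, Gpm6a, Aldh1a2 and Rspo1), against 64.9% of all named genes, so the share above the limit was near that of all genes. On the cocaine array alone 6 of 8 lay above it, against 67.3% of all named genes, and on the control array 5 of 8, against 66.2%. At least 1.5-fold higher after cocaine were 2 of the 8, Aldh1a2 and Wt1, against 4.63% of all named genes, and the control value of Wt1 was under the limit. At least 1.5-fold lower were 0 of the 8, against 4.95% of all named genes, and no gene of the 8 differed by 2-fold.

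**Figure D1:**
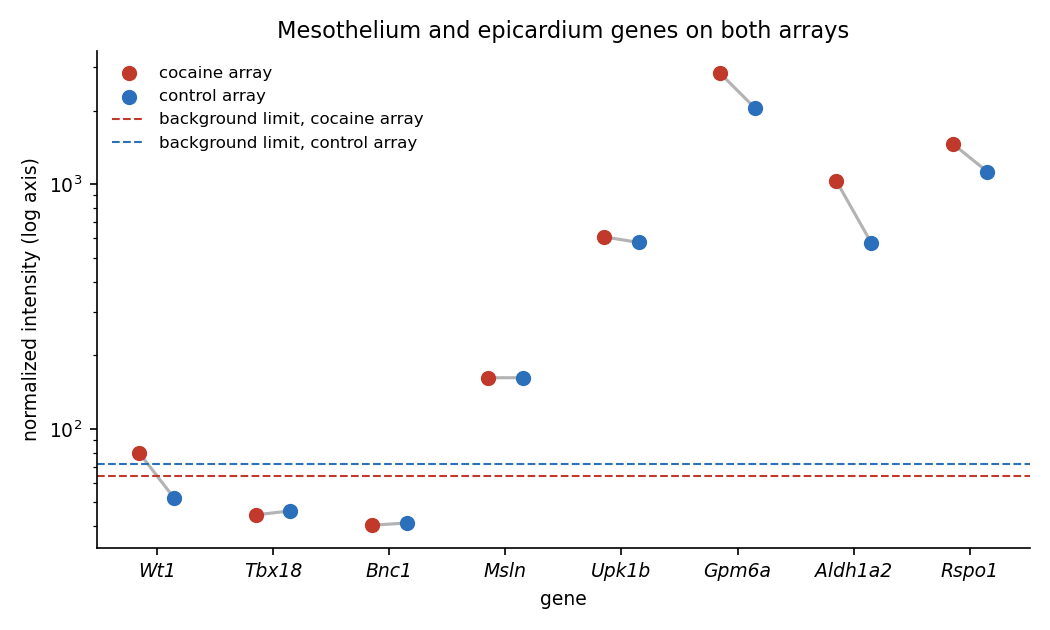
Normalized intensity (log axis) of the 8 measured genes on the cocaine array (red) and on the control array (blue), with the background limit of each array as a dashed line. Gpm6a, Rspo1 and Aldh1a2 stand above both limits and are higher on the cocaine array, Msln and Upk1b are nearly level, and Tbx18 and Bnc1 lie under both limits.

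The 3 transcription factors among the measured genes of the 10 lay near or under the background limit. Wt1, the zinc finger factor that mesothelium and epicardium share with podocytes, had an intensity of 79.6 after cocaine and 52.0 in the control. The cocaine value was 1.24 times its limit and the control value lay under its limit, at 0.727 of it. Its log2 ratio of cocaine over control was 0.61, a 1.53-fold difference, but with the control raised to its limit it was at least 1.11-fold higher. Of the 500 named genes nearest to it in mean level, 14.4% differed between the arrays by as much or more in either direction. This share is a rank among genes and not a p-value. It does not measure the replicate error, which cannot be had here, because the differences of these genes also hold treatment and animal.

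Tbx18, a T-box factor of the embryonic epicardium, stood at 44.5 after cocaine and 46.2 in the control. Bnc1, the zinc finger protein basonuclin 1 of mesothelium and of stratified epithelium, stood at 40.3 after cocaine and 41.2 in the control. Both genes were under the limit on both arrays, so no fold was taken for them. Their log2 ratios of -0.06 and -0.03 were above 0 after quantile normalization (0.02 and 0.06) and after a loess fit (0.01 and 0.04), so that they have no settled direction. A value under the limit does not show that the gene is silent.

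Msln and Upk1b, which encode surface proteins, had nearly the same intensity on both arrays. Msln encodes mesothelin, an anchored protein of the mesothelial surface that binds the mucin Muc16, and its intensity was 161.7 after cocaine and 161.8 in the control. Both values were above their limits, at 2.52 times the limit after cocaine and 2.26 times in the control. Of the 500 genes nearest in level, 99.4% differed by more than Msln or as much. Upk1b, a tetraspanin of the uroplakin plaques of the bladder lining, stood at 609 after cocaine and 578 in the control, a log2 ratio of 0.08, and 82.4% of the 500 nearest genes differed by as much. The uroplakin partners Upk1a, Upk2 and Upk3a, and the related Upk3bl1, lay under the limit on both arrays. Upk1b was thus the 1 gene of the 5 measured uroplakins above it on both arrays, against 64.9% of all named genes.

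Gpm6a, a membrane glycoprotein of the proteolipid family best known from neurons, stood at 2839 after cocaine and 2047 in the control. These were 44.3 times the limit after cocaine and 28.6 times in the control. The log2 ratio was 0.47, or 1.39-fold, and 12% of the 500 nearest genes differed by as much. It thus lay outside the central 50% of genes of its level and inside the central 95%.

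The genes that make or carry signals were both higher on the cocaine array. Aldh1a2, the dehydrogenase that turns retinaldehyde into retinoic acid, had an intensity of 1031 after cocaine and 577 in the control, which was 16.1 times the limit after cocaine and 8.06 times in the control. The log2 ratio was 0.84, a 1.79-fold difference and the largest of the 8. Of the 500 genes nearest in level, 9 (1.8%) differed by as much in either direction, and over all named genes it held rank 203 by rise. The central 95% of these neighbours lay between -0.58 and 0.69, and Aldh1a2 was the 1 gene of the 8 outside such a range. Rspo1, a secreted R-spondin that strengthens Wnt signalling through the Lgr receptors, stood at 1465 after cocaine and 1125 in the control. Its log2 ratio was 0.38, or 1.30-fold, with 19.6% of the 500 nearest genes differing by as much.

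**Figure D2:**
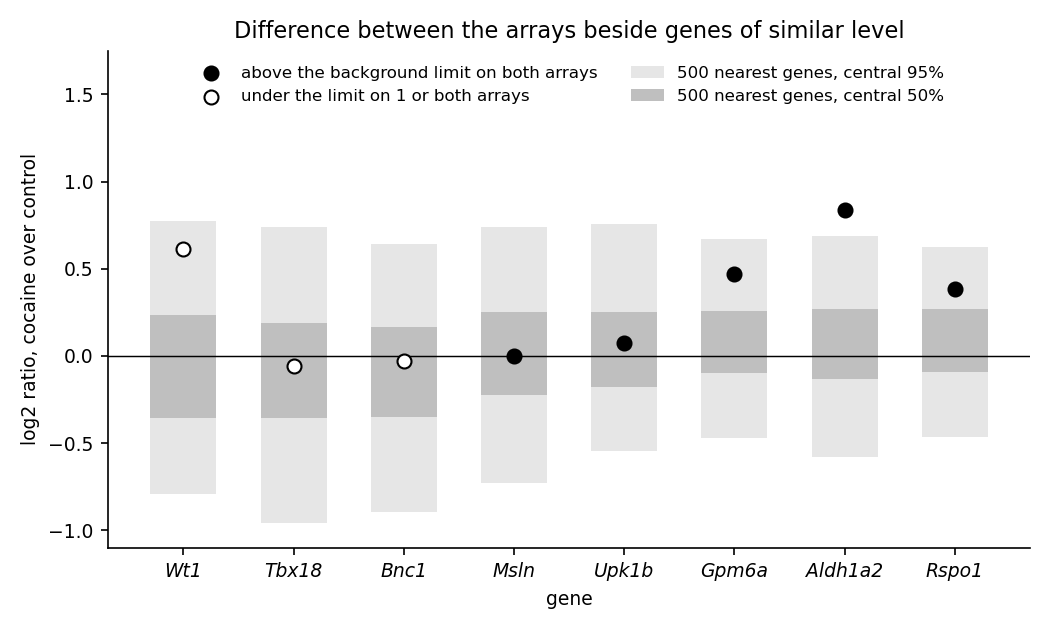
Log2 ratio of the cocaine over the control array for the 8 measured genes (points), with the central 95% (light bars) and the central 50% (dark bars) of the 500 named genes nearest to each in mean level. Aldh1a2 at 0.84 lies above its light bar, Gpm6a and Rspo1 lie between the bars' edges, and the open points are genes under the limit on 1 or both arrays.

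The promoters of the 3 genes that were above the limit on both arrays and at least 1.3-fold higher after cocaine are shown with that of Tbx18, which was under the limit on both. Each runs 5′ to 3′ over 300 bases, 250 before and 50 after the start of transcription, from RefSeq on the GRCr8 build, and capitals mark the motifs searched. Of the 10 genes, 9 were in the promoter table, all but Msln. The 1.3-fold cut was chosen with the values known, and of the 3 genes only Aldh1a2 was at least 1.5-fold higher.
Aldh1a2 (chr8:80758391-80758690, forward strand): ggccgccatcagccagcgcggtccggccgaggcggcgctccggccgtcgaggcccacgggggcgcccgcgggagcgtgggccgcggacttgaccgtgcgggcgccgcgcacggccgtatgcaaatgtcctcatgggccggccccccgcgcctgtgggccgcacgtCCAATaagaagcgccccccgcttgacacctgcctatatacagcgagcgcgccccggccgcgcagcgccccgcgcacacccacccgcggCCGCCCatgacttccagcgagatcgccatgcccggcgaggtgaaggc
Gpm6a (chr16:43706412-43706711, reverse strand): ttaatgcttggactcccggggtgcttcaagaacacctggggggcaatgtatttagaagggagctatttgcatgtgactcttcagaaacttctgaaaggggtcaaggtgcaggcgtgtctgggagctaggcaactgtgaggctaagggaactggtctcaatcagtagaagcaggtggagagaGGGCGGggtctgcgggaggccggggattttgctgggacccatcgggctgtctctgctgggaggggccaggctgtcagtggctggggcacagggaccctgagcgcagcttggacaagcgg
Rspo1 (chr5:142536040-142536339, forward strand): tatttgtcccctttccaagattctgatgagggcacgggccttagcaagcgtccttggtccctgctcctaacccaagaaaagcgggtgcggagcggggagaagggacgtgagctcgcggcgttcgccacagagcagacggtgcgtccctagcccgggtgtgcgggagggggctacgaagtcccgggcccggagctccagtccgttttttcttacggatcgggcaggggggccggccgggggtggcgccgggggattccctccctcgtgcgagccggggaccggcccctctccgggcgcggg
Tbx18 (chr8:97559916-97560215, reverse strand): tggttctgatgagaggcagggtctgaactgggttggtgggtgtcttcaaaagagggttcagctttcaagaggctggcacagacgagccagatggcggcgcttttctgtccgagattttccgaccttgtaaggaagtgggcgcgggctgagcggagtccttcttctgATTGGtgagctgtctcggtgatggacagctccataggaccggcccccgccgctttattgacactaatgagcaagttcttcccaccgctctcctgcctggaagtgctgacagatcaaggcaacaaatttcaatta

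Both strands were searched for the TATA box with the letters TATAAA, for the CCAAT box, and for the GC box with the letters GGGCGG. The site of TEAD factors was searched as CATTCC, that of T-box factors such as Tbx18 as AGGTGTGA, and the one that EGR and WT1 factors share as GCGGGGGCG. Aldh1a2 held CCAAT at -85 and a GC box at 3, counted from the start of transcription as 0, Gpm6a a GC box at -69, Tbx18 CCAAT at -84, and Rspo1 none of them. No matches overlapped. CCAAT is in 37.5% of all 33469 promoter windows of this length, the GC box in 33.1%, CATTCC in 14.2%, TATAAA in 14.2%, GCGGGGGCG in 2.73% and AGGTGTGA in 1.10%. The GC content was 76% for Aldh1a2, 68.7% for Rspo1, 58.7% for Gpm6a and 54% for Tbx18, against a median of 51.7% over all windows. Among the promoters not shown it was 82.7% for Bnc1, 71% for Wt1, 56.7% for Upk3b, 55.3% for Upk1b and 52.3% for Lrrn4. Bnc1, like Tbx18 under the limit on both arrays, held 5 GC boxes. Upk1b and Lrrn4 each held CCAAT and CATTCC, and Wt1 and Upk3b held no match. These are letter matches, and the arrays hold no measurement of binding.

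Over the 8 genes the median log2 ratio was 0.23, against 0.02 over all named genes. With values under the higher background limit raised to it, the median was 0.11. Leaving out 1 gene moved it to 0.08 or to 0.38, depending on the gene. With only the 5 genes above the limit on both arrays, 3 of which (Aldh1a2, Gpm6a and Rspo1) lay between 0.38 and 0.84, it was 0.38, and over all named genes above the limit on both arrays the median was 0.05. The summed intensity of the 8 genes was 6269 after cocaine and 4627 in the control, a log2 ratio of 0.44, against 0.04 over all named genes. Gpm6a gave the largest part of the sum, 2839 after cocaine and 2047 in the control.

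**Figure D3:**
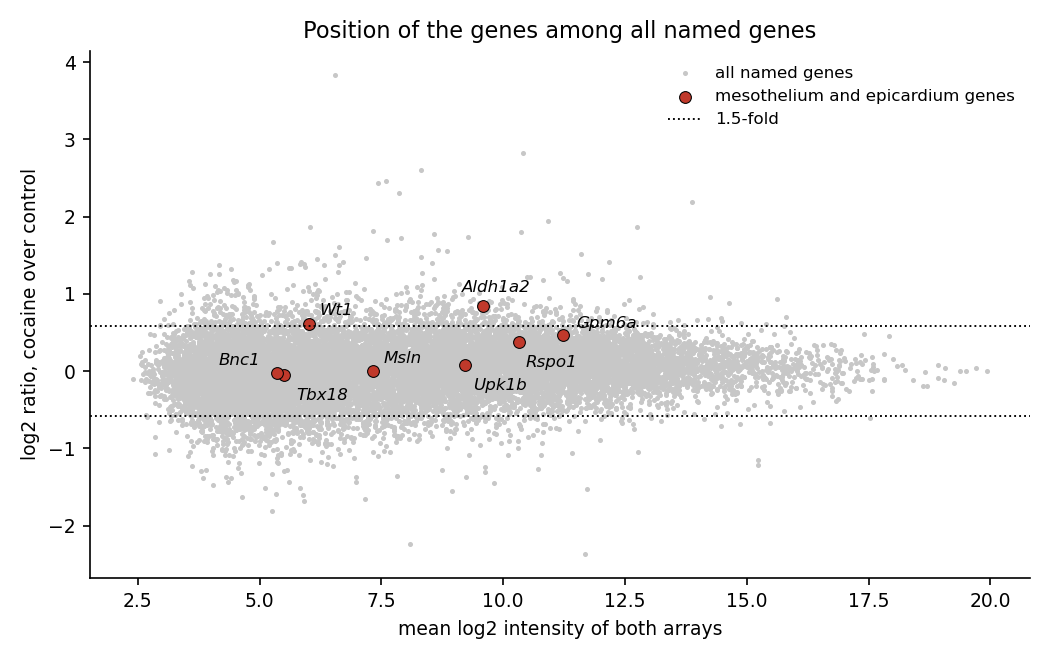
Log2 ratio of the cocaine over the control array against the mean log2 intensity of both arrays, for all 15037 named genes (grey) and the 8 measured mesothelium and epicardium genes (red), with 1.5-fold as dotted lines. Aldh1a2 and Wt1 lie above the upper line, and no gene of the 8 lies below the lower line.

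A further 20 genes of mesothelium and epicardium, none of them among the 10, were looked up in the same way. Of the 18 measured, 13 were higher and 5 lower after cocaine, against 7882 and 7118 of all 15037 named genes. Their median log2 ratio was 0.28. Above the limit on both arrays were 13, against 64.9% of all named genes. At least 1.5-fold higher were 5, against 4.63% of all named genes, and 0 were at least 1.5-fold lower, against 4.95%. The keratins Krt8 and Krt18, which pair in simple epithelia of many kinds, were both among the 5. Krt8 stood at 6348 after cocaine and 2767 in the control, a log2 ratio of 1.20, and the ratio of Krt18 was 0.73. Ptgis, the prostacyclin synthase, had 0.76, and Cpe, a carboxypeptidase that processes peptide hormones, 0.82. Nkain4, which interacts with the sodium pump, stood at 85.3 after cocaine and 56.7 in the control, where it was under the limit. Krt8 and Krt18 are also genes of lung epithelium, whose 17 measured markers had a median of 0.05, with the largest difference in the aquaporin gene Aqp5, at 0.51. Pdpn, the brightest of the 18 at 129091 after cocaine and 106400 in the control, is on both lists. Tcf21 is also on the lists of fibroblasts and of the epicardial change described below. The part of lung epithelium in the keratin values was not tested.

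The genes of retinoic acid metabolism around Aldh1a2 were spread to both sides of 0. Of 17 other measured genes of the pathway, 8 were higher and 9 lower after cocaine, with a median log2 ratio of -0.01. Lrat, which stores retinol as esters, stood at 434 after cocaine and 269 in the control, a log2 ratio of 0.69. Rbp4, the carrier of retinol in blood, stood at 431 after cocaine and 277 in the control, a ratio of 0.64. The other enzymes that make retinoic acid differed in direction, Aldh1a1 with a log2 ratio of 0.21 and Aldh1a3 with -0.51. Crabp1, a binding protein for retinoic acid, stood at 62.8 after cocaine, under the limit, and at 94.5 in the control. The receptor genes Rara, Rarb and Rarg were between -0.05 and 0.18, and Cyp26b1, an enzyme that degrades retinoic acid, stood at 0.11.

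Genes of the pathway around Rspo1 lay on both sides of 0. Of 8 other measured genes of the R-spondin pathway, 6 lay above 0 and 2 below, against 7882 and 7118 of all 15037 named genes. The median log2 ratio was 0.07. With each array centred on its median, or after quantile normalization or loess, 5 lay above 0 and 3 below. The relatives Rspo2 and Rspo3 stood under the limit on both arrays. Of the receptors, Lgr4 had a log2 ratio of 0.11, and Lgr5 stood at 91.5 after cocaine and 34.9 in the control, where it was under the limit. Axin2, a common target of Wnt signalling, had a log2 ratio of 0.01, and Rnf43, which removes Wnt receptors and is held back by R-spondins, -0.49. Among 9 other measured T-box genes the median was 0.05, and it was -0.03 after quantile normalization or loess. Tbx20, a factor of heart muscle and its lining, stood at 78.5 after cocaine and 47.1 in the control, the control value under the limit.

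**Figure D4:**
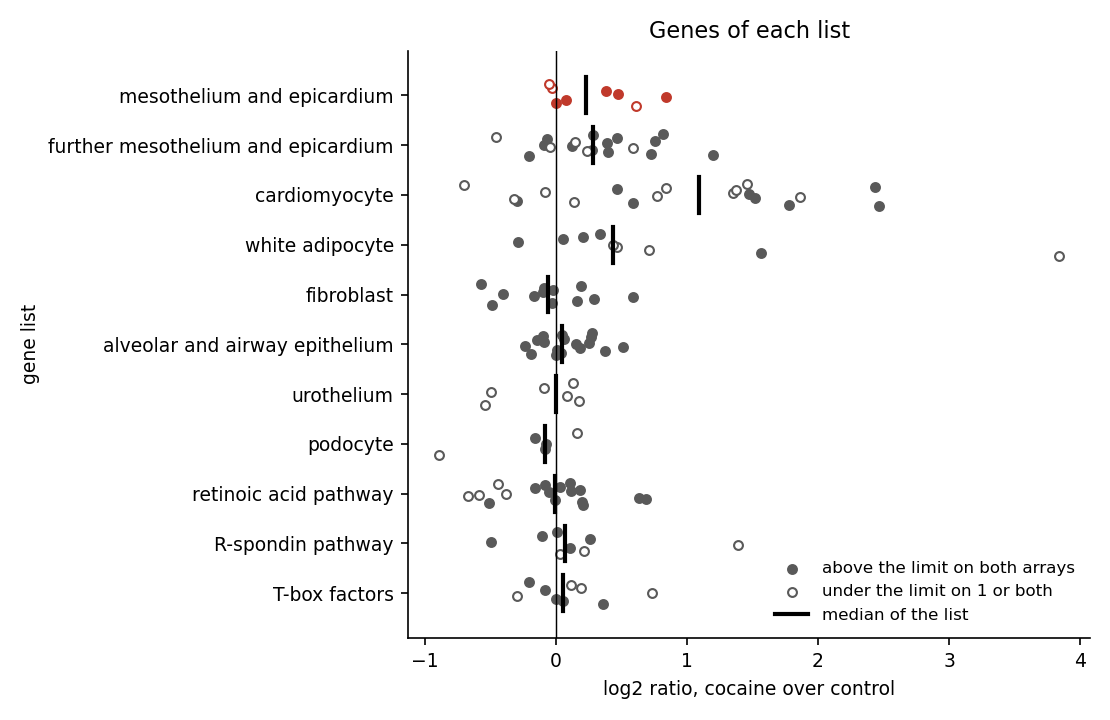
Log2 ratio of the cocaine over the control array for the measured genes of each list (points, open where under the limit on 1 or both arrays) and their median (bars), with the 10-gene list in red and its genes left out of the other lists. The cardiomyocyte list has the highest median, at 1.09, against 0.23 for the mesothelium and epicardium genes and 0.05 for alveolar and airway epithelium.

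Markers of other cells differed between the arrays at the same time. Among 18 cardiomyocyte markers, 12 exceeded 1.5-fold upward after cocaine, against 4.63% of all named genes, and 1 downward, against 4.95%. The median log2 ratio was 1.09, and summed intensities were 15077 after cocaine and 11019 in the control. Myl2, the brightest of the 18, stood at 6344 after cocaine and 7778 in the control, a log2 ratio of -0.29. The 12 were Tnnt2, Mb, Actn2, Tnni3, Actc1, Pln, Cox6a2, Csrp3, Nppa, Ldb3, Ryr2 and Tnnc1, with log2 ratios between 0.59 and 2.46, and the 1 was Ckm at -0.70. The control values of Actn2, Cox6a2, Csrp3, Nppa, Ldb3 and Ryr2 were under the limit, as was the cocaine value of Ckm. The difference for Aldh1a2, at 0.84, was below the median of these muscle genes.

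White adipocytes are found in the fat under the epicardium. Of their 9 measured markers, 3 were at least 1.5-fold higher, against 4.63% of all named genes. The median was 0.43 over the 9 and 0.21 over the 5 above the limit on both arrays, and summed intensities were 3727 after cocaine and 2841 in the control. Adipoq, the adipocyte hormone adiponectin, stood at 352 after cocaine and 24.7 in the control, the control value under the limit, and Fabp4, a fatty acid carrier, at 694 after cocaine and 235 in the control. The third, Lep, was under the limit on both arrays, as were Cidec and Retn. Pparg, the adipocyte master regulator, had a log2 ratio of 0.05, and Lipe, the hormone-sensitive lipase, -0.29. Fibroblasts, which the epicardium gives rise to, had a median of -0.06 over 12 markers, 1 of them at least 1.5-fold higher, the proteoglycan gene Lum at 0.59. The summed intensity of the 17 lung epithelium markers was 3712720 after cocaine and 3684460 in the control, a log2 ratio of 0.01. Of these, the surfactant gene Sftpc stood at the highest value of the table, 999971, on both arrays and could not differ. Without it the sum over 16 markers was 2712750 after cocaine and 2684488 in the control, a log2 ratio of 0.02. The part of these other cells in the values of the mesothelium and epicardium genes was not tested.

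Podocytes share Wt1 with the layer and urothelium shares the uroplakins. The 5 measured podocyte markers other than Wt1 had a median log2 ratio of -0.08, the most different of those above the limit on both arrays being Cdkn1c, a cell cycle inhibitor, at -0.16, and the podocyte slit protein gene Nphs1 was under the limit on both arrays. All 6 measured urothelium markers other than Upk1b were under the limit on both arrays, against 4732 of all 15037 named genes.

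**Figure D5:**
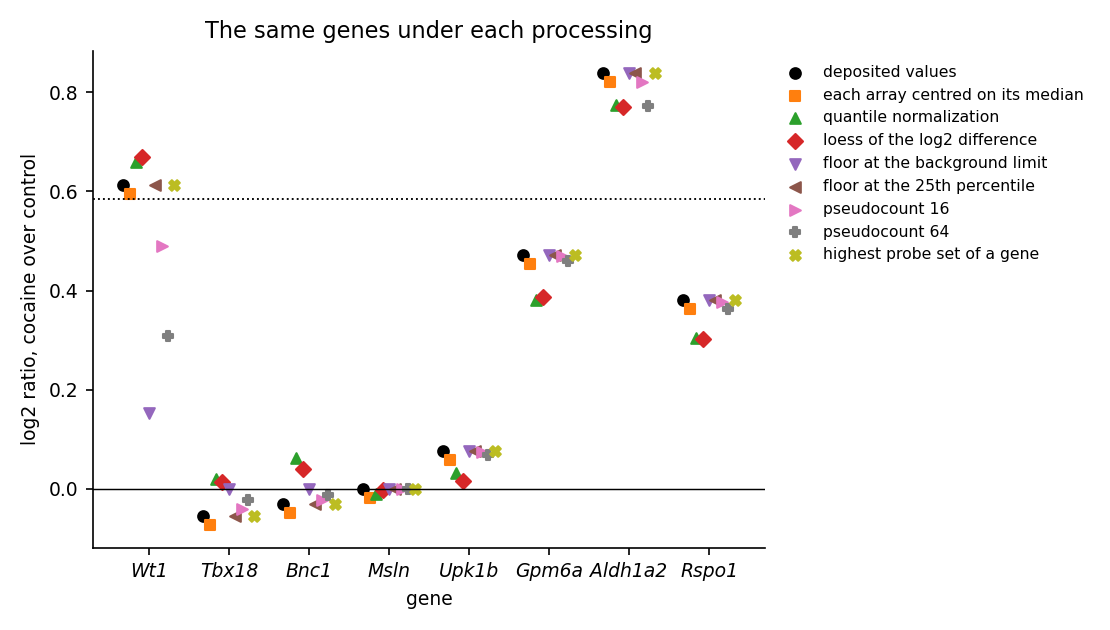
Log2 ratio of the cocaine over the control array for the 8 measured genes under the deposited values (black circles) and 8 other treatments of the values (other symbols), with 1.5-fold as a dotted line. Aldh1a2 stays above the line in all of them, between 0.77 and 0.84, whereas Wt1 runs between 0.15 and 0.67.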

How the data were processed

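The authors hybridized RNA to 1 Clariom S array per rat and deposited 1 normalized intensity per probe set, on a linear scale. MAS5 is listed in the submitters' processing notes. The methods say that the data were analysed in the Transcriptome Analysis Console and do not name the normalization. The platform annotation named 15049 of 24834 probe sets with 1 symbol, 0 with several, and the other 9785 were unnamed or controls. After log2 transformation, probe sets of the same gene were averaged, giving 15037 genes (10 had more than 1 probe set, none of them a gene described), with no filter on low values. Each of the 8 measured genes lay on the chromosome that RefSeq (GRCr8) gives. The ratio was cocaine over control. With 2 arrays there is no test, and their number limits the precision.

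The genes, lists and settings were chosen with earlier results of these data known. Every gene of the 10 is named. Of the other lists, those at least 1.5-fold different with the higher level above the limit are named, and the most different where there were none. Further genes were named for their role after their values were seen. Other scalings, floors, pseudocounts and background limits were tried as alternatives. The steps were tested on simulated data with the same noise at every level. The planted changes were larger than any difference of the measured genes of the 10. That test thus does not cover differences of the size these genes showed. Python 3.11.15, numpy 2.4.6, pandas 2.3.3, statsmodels 0.14.6 and matplotlib 3.10.9 were used.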

Additional observations from a re-analysis of the deposited data

How the results depend on the processing

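The values were recomputed with each array centred on its median, after quantile normalization, after a loess of the log2 difference on level (span 0.3), with floors at the higher background limit and at the 25th percentile of each array, with pseudocounts of 16 and 64, and with the highest probe set of a gene. The number of genes at least 1.5-fold higher was 2 as deposited, 1 (Aldh1a2) with the floor at the background limit, 1 with a pseudocount of 16, 1 with a pseudocount of 64, and 0 at a threshold of 2-fold. Apart from the 2-fold threshold, which Aldh1a2 also missed, Wt1 was the gene lost, with a log2 ratio of 0.15 at the floor and 0.31 with a pseudocount of 64, against 0.61. Of the 64 recomputed ratios of single genes, the other 62 moved by less than the median difference of genes of similar level. The background limit at the 90th percentile left 6 genes over it after cocaine and 5 in the control, that at the 99th percentile 5 in each, without Wt1, and a limit from 23 background control probe sets 4 in each, without Wt1 and Msln. Of these control probe sets, 9 had identical values on both arrays. The median of the 10-gene list, 0.23 as deposited, was 0.11 with the floor at the background limit, 0.19 with a pseudocount of 64, and between 0.17 and 0.21 with centring, quantile normalization and loess. No paired analysis was possible because each group has 1 sample, and no sample could be left out. Intensities near the background limited what could be said of Wt1, Tbx18 and Bnc1.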

Other observations

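A list of 19 genes covered the change of epicardial cells from an epithelial to a mesenchymal form. Of 17 measured, 9 lay above 0 and 8 below, and the median log2 ratio was 0.03. At least 1.5-fold higher after cocaine were 2, against 4.63% of all named genes. Vcam1, an adhesion molecule that the epicardium shares with activated vessels, stood at 3415 after cocaine and 2156 in the control, and Tgfb2, a growth factor that promotes this change, at 1506 after cocaine and 994 in the control. The transcription factor genes Snai1 and Snai2 had log2 ratios of 0.15 and -0.23.

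Of 10 measured paralogs of the mesothelium genes, 4 of them Egr genes, 4 were under the background limit on both arrays. Over all 15037 named genes, 4732 were. At least 1.5-fold lower were 3 of the 10 (Lrrn3, Egr1 and Egr2), against 4.95% of all named genes. At least 1.5-fold higher was 1, Lrrn4cl, against 4.63%, and it was under the limit on both arrays. Over the 5 above the limit on both arrays (Bnc2, Gpm6b, Lrrn1, Lrrn3 and Egr1) the median log2 ratio was -0.34. Over all named genes above it on both arrays the median was 0.05. Gpm6b, the closest relative of Gpm6a on the list, was 7706 after cocaine and 6068 in the control, a ratio of 0.34. Lrrn3, of the leucine-rich repeat family that holds Lrrn4, was 811 after cocaine and 1514 in the control, a ratio of -0.90. Egr1 and Egr2, zinc finger factors whose binding site resembles that of Wt1 and which respond within minutes to stimuli, had -0.92 and -0.65, the cocaine value of Egr2 under the background limit. Bnc2, the relative of Bnc1, stood at 214 after cocaine and 271 in the control.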
